A study of Homo sapiens with 9 samples.

Results

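Total RNA was sequenced from HCT116 cells, an established line of human colorectal cancer, after transfection with siRNAs aimed at EXOSC10-AS1, whose long non-coding RNA is transcribed antisense to EXOSC10. The comparison described here set the 3 libraries of siRNA 2 directly against the 3 libraries of siRNA 1, that is 6 of the 9 libraries of the series. The other 3 libraries carried a control siRNA, entered no test, and are given only as a level beside the others. All 9 libraries came from the same line and received their siRNA with Lipofectamine RNAiMax in McCoy's 5A medium with serum. They share a batch entry of day 3, total RNA was taken with Trizol, and libraries followed a standard Illumina preparation. Separate cultures or transfections behind the 3 libraries of each group are not named in the labels, so p-values measure the spread between these libraries, which may be technical. HCT116 is a single line, and the siRNA sequences and doses were not used here.

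An siRNA is a short double-stranded RNA of which a single strand, the guide, is loaded into an Argonaute protein and directs cleavage of transcripts that it matches along its length. A guide can also repress transcripts that match only its seed, the first bases after its 5′ end, and double-stranded RNA can be read by the sensors of the interferon system. Reagents of different sequence aimed at the same RNA share the intended target and differ in the rest. A direct contrast between them lists the transcripts at which the reagents differ, and it cannot tell an effect of siRNA 1 from an opposite effect of siRNA 2 without the control level beside it. Throughout, higher and lower refer to siRNA 2 relative to siRNA 1.

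The siRNA 1 libraries held 61.1, 64.4 and 66.5 M counts and the siRNA 2 libraries 61.8, 59.8 and 63.9 M. Of the 10 colorectal epithelial markers, EPCAM, CDH1, the keratins KRT8, KRT18 and KRT19, the claudins CLDN3, CLDN4 and CLDN7, and ELF3 were expressed, and VIL1 was at 0 in all 6 libraries. Their summed level was 4489 to 5296 CPM (counts per M counts of the library) with siRNA 1 and 3869 to 4572 with siRNA 2, against 5297 to 5398 in the control libraries. Of 8 leukocyte markers PTPRC, CD3E and MS4A1 were at 0, and the sum of all 8 was 0.887 to 1.41 CPM with siRNA 1 and 1.61 to 2.14 with siRNA 2, beside 1.82 to 2.57 in control. Fibroblast markers summed to 46.7 to 52.2 CPM with siRNA 1 and 36.3 to 40.2 with siRNA 2, nearly all of it COL1A1, with COL1A2 and THY1 at 0. Neural and liver markers summed to 36.2 to 53.1 CPM with siRNA 1 and 70.5 to 84.5 with siRNA 2, nearly all of it SYT1, with APOA1 and TTR at 0. In bulk RNA, fewer cells of a type and less RNA per cell cannot be told apart.

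The libraries also differed by the base composition of their genes, and this ran along the comparison. For 12161 genes with a mean log2 CPM of at least 2, the correlation between GC content and a library's deviation from the mean of the 6 libraries was 0.75 in siRNA 1 replicate 1, and -0.60 and -0.61 in siRNA 2 replicates 2 and 3. In siRNA 1 replicates 2 and 3 and in siRNA 2 replicate 1 it lay between -0.029 and 0.11. The median log2 difference went from 0.36 in the lowest of 10 equal bins of GC content to -0.39 in the highest. The first principal component, with 67.4% of the variance, placed siRNA 1 replicate 1 at -44.5 and replicates 2 and 3 at -11.6 and -12.3, and siRNA 2 replicate 1 at 8.95 and replicates 2 and 3 at 29.4 and 30.0. Whether the trend arose in the cells or in the libraries was not tested. Counts from a fit that takes out each library's GC trend are therefore given beside the gene lists as GC-corrected values. Deviations from the group means correlated at 0.35, 0.18 and 0.24 between libraries with the same replicate number. Replicates 2 and 3 also correlated across numbers, at 0.184 and 0.183, so number did not set these replicates apart. Replicate 1 of each siRNA correlated at -0.23 to -0.30 with replicates 2 and 3 of the other. Deviations from a group mean cancel within the group, so these correlations depend on each other and are not separate evidence of pairing.

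**Figure D1:**
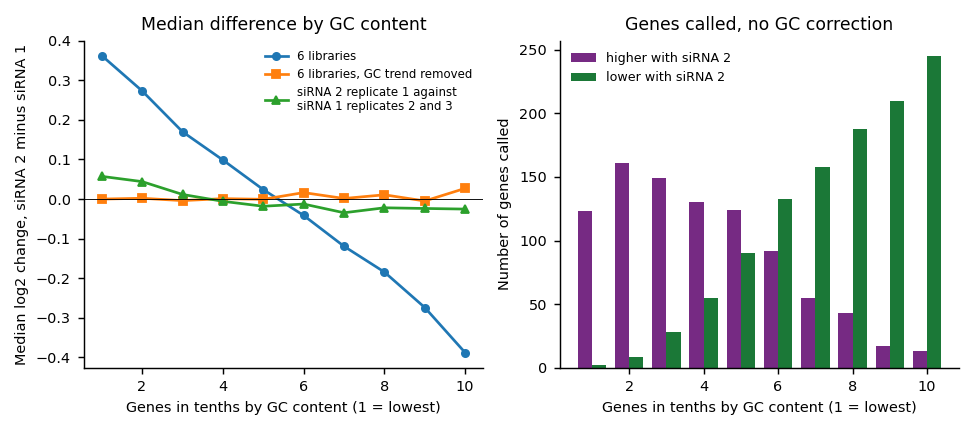
Genes are placed in 10 equal bins by the GC content of their longest transcript, from lowest at the left to highest at the right. The left panel shows the median log2 difference (siRNA 2 minus siRNA 1), which runs from 0.36 to -0.39 over the 6 libraries. It stays near 0 once each library's GC trend is removed or when siRNA 2 replicate 1 is set against siRNA 1 replicates 2 and 3. Both were fixed in advance, since the correction takes out this trend and those libraries were chosen for their low GC correlation. The right panel counts the genes called in each direction without correction, from 123 higher and 2 lower in the lowest bin to 13 higher and 245 lower in the highest.

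EXOSC10-AS1 (ENSG00000230337), the intended target of both reagents, gave too few counts to compare them. Its raw counts were 4, 0 and 0 with siRNA 1 and 5, 13 and 0 with siRNA 2, beside 26, 4 and 14 in the control libraries. The groups overlapped, with 1 library of siRNA 2 and 2 libraries of siRNA 1 at 0, where a floor of 3 counts corresponds to 0.0451 to 0.0470 CPM. The gene did not pass the filter on low counts in the 6 libraries. With no filter its log2 difference was 2.10 ± 1.89 (± is the standard error throughout, adjusted p = 0.53 by edgeR's quasi-likelihood test with Benjamini-Hochberg adjustment), and a difference in target level was not detectable at this depth. Reads of EXOSC10-AS1 and of EXOSC10 cannot be told apart where the genes overlap, since how the counting used strand was not given in the sources used here. EXOSC10, the nuclear catalytic subunit of the RNA exosome, read 104, 88.7 and 91.0 CPM with siRNA 1 and 101, 99.9 and 98.4 with siRNA 2. Its groups overlapped and its log2 difference was 0.08 ± 0.09 (adjusted p = 0.62).

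Of 20014 genes tested, 2325 were called at an adjusted p under 0.05, which is 11.6%. Of these 1084 (5.42%) were higher with siRNA 2 and 1241 (6.2%) were lower, and the median absolute log2 difference of a called gene was 0.68. At least 2-fold, 275 genes were higher (1.37%) and 206 were lower (1.03%). The libraries of the groups did not overlap for 2323 of the called genes, beside 39.6% of all genes tested. GC-corrected, 4379 of 19428 genes were called (22.5%), 2328 higher (12%) and 2051 lower (10.6%), and 2052 of the 2306 called genes with a GC value were called again in the same direction. With the replicate number as a block, 2088 genes were higher and 2569 lower, and 2272 of the 2325 calls were kept in the same direction.

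The number of calls depended on single libraries. It was 735 without siRNA 1 replicate 2, 616 without siRNA 1 replicate 3, 258 without siRNA 2 replicate 2 and 237 without siRNA 2 replicate 3. It was 2546 without siRNA 1 replicate 1 and 3471 without siRNA 2 replicate 1, and 7562 when both replicate 1 libraries were left out. Only 223 genes, 116 higher and 107 lower, were called in all 6 fits that left out a single library, and 134 of them differed at least 2-fold. In the libraries with little GC trend, siRNA 2 replicate 1 and siRNA 1 replicates 2 and 3, 476 of the 481 called genes with an at least 2-fold difference had the same sign. Those libraries are also part of the comparison itself.

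The control level lay between the levels of the siRNAs for most called genes. This held for 1830 of the 2325 called genes (78.7%) and for 416 of the 481 with an at least 2-fold difference (86.5%), beside 43.6% of all genes tested. For 30 of the 481 the control mean was above both siRNA means and for 35 it was below both. This is a count of means, with no test. The called genes were selected for a gap between the siRNA means, and a wider gap takes in the control mean more often by construction. The 43.6% is therefore not a base for the shares among called genes. Whether the siRNAs acted in opposite directions was not tested. The same limit applies to the placements of control means given below for called genes of a list.

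**Figure D2:**
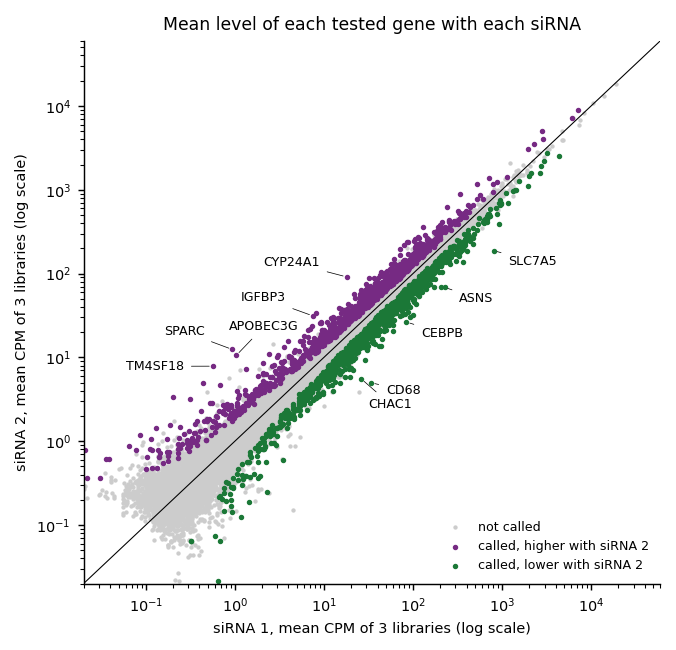
Each point is a tested gene, with its mean CPM over the 3 siRNA 1 libraries on the horizontal axis and over the 3 siRNA 2 libraries on the vertical axis, both on log scales, and the line marks equal levels. Called genes lie on either side of the line, 1084 above and 1241 below, and 14 genes with a mean under the axis minimum are not fully shown.

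The genes with the largest rise with siRNA 2 were TM4SF18, SPARC and APOBEC3G. SPARC (ENSG00000113140), a collagen-binding matricellular glycoprotein, read 0.662, 0.991 and 1.15 CPM with siRNA 1 and 12.02, 12.2 and 13.1 with siRNA 2, a log2 difference of 3.73 ± 0.22 (adjusted p = 0.00048). Its control libraries read 4.77, 5.10 and 4.22 CPM, so that every siRNA 1 library was below and every siRNA 2 library above all 3 controls. TM4SF18, a tetraspanning membrane protein of the L6 family, read 0.281, 0.728 and 0.689 CPM with siRNA 1 and 6.23, 9.31 and 8.03 with siRNA 2 (log2 3.78 ± 0.35, adjusted p = 0.0022). Where they overlap, its reads cannot be told apart from those of TM4SF18-AS1 on the other strand, nor those of SPARC from those of CLMAT3. APOBEC3G, a cytidine deaminase that restricts retroviruses, read 1.41, 0.913 and 0.809 CPM with siRNA 1 and 10.8, 10.7 and 10.4 with siRNA 2 (log2 3.35 ± 0.23, adjusted p = 0.00094). Its control libraries, at 2.10, 1.38 and 1.10 CPM, overlapped the siRNA 1 libraries and lay far below siRNA 2.

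CYP24A1, the hydroxylase that degrades active vitamin D, had the lowest adjusted p among the named genes. It read 17.7, 17.5 and 18.8 CPM with siRNA 1 and 86.3, 95.1 and 92.4 with siRNA 2, a log2 difference of 2.34 ± 0.09 (adjusted p = 0.00012), with a control mean of 37.2 CPM between the groups. VDR, the vitamin D receptor, differed the other way, with a mean of 27.2 CPM with siRNA 1 and 14.9 with siRNA 2 (log2 -0.87 ± 0.11, adjusted p = 0.0053). Its control mean, 16.4 CPM, was close to siRNA 2, so here siRNA 1 stood above the other groups. CYP24A1 and VDR were the called genes among 9 of the vitamin D response, which had 1 higher and 3 lower GC-corrected and 1 and 2 with the replicate block. IGFBP3, which binds insulin-like growth factors in the extracellular space, read 6.93, 8.30 and 7.30 CPM with siRNA 1 and 33.7, 28.5 and 31.7 with siRNA 2 (log2 2.06 ± 0.13, adjusted p = 0.00048). MYBPH, a myosin-binding protein, read 8.94, 7.83 and 7.64 CPM with siRNA 1 and 36.6, 30.4 and 33.7 with siRNA 2 (log2 2.05 ± 0.13). The control libraries of IGFBP3 and MYBPH, at means of 7.08 and 9.44 CPM, were close to siRNA 1, so these genes stood apart with siRNA 2.

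RPE65, the retinoid isomerase of the visual cycle, showed the reverse placement, with 2.25, 2.77 and 2.28 CPM with siRNA 1, 9.84, 12.4 and 10.8 with siRNA 2, and 9.49, 8.76 and 9.64 in the control libraries (log2 2.18 ± 0.17, adjusted p = 0.0012). Here the siRNA 1 libraries stood apart. ABCA1, the exporter of cellular cholesterol, rose from a mean of 3.00 to 10.0 CPM (log2 1.74 ± 0.20). PIK3R3, a regulatory subunit of phosphoinositide 3-kinase, rose by 2.07 ± 0.18 on the log2 scale and shares exons with the readthrough gene P3R3URF-PIK3R3. The non-coding RNA LINC02331 rose by 2.02 ± 0.19 and IFIT2, an interferon-induced gene that overlaps LIPA on the other strand, by 1.82 ± 0.21. TNNC1, the troponin C of slow and cardiac muscle, read 2.35, 0.650 and 0.989 CPM with siRNA 1 and 7.20, 7.48 and 7.07 with siRNA 2 (log2 2.45 ± 0.42, adjusted p = 0.014). Its call was lost without siRNA 1 replicate 3 and without siRNA 2 replicates 2 or 3, where its adjusted p reached 0.067.

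**Figure D3:**
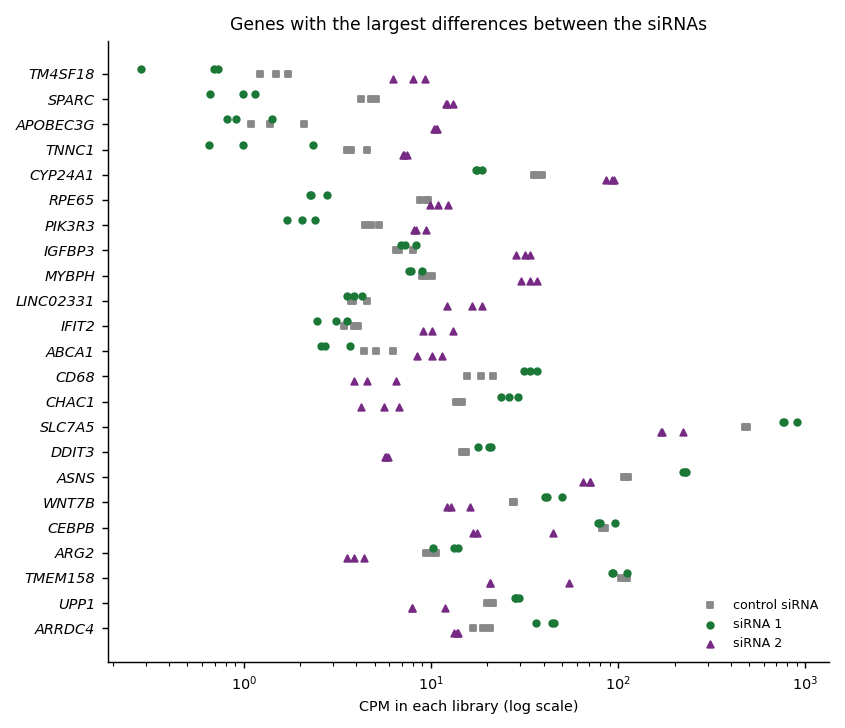
CPM of the genes with the largest rise (upper 12) and fall (lower 11) in each library, on a log scale, with squares for control siRNA, circles for siRNA 1 and triangles for siRNA 2. The circles and triangles of a gene never overlap, and the squares fall between them for most genes, while SPECC1L-ADORA2A, at 0 in the siRNA 2 libraries, cannot be placed on a log axis.

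Among the largest falls, SPECC1L-ADORA2A, a readthrough of SPECC1L and ADORA2A, had raw counts of 678, 635 and 701 with siRNA 1 and 0 in all 3 siRNA 2 libraries. Against a floor of 3 counts per library it was at least 217-fold lower with siRNA 2. The control libraries had counts of 0, 408 and 706, so a library with no siRNA against EXOSC10-AS1 was also at 0, and the gene shares exons with SPECC1L and ADORA2A. ADORA2A, a receptor for adenosine, named after its values were seen, was high in those same libraries, at 5.77, 4.03 and 4.12 CPM with siRNA 2 and 7.42 in control replicate 1, and read 0.546 to 0.899 CPM in the other 5 libraries. SPECC1L had a log2 difference of 0.17 ± 0.09 (adjusted p = 0.23). CD68, a lysosomal membrane glycoprotein best known from macrophages, read 36.9, 31.6 and 33.8 CPM with siRNA 1 and 4.55, 6.497 and 3.87 with siRNA 2, beside 18.4, 21.5 and 15.5 in the control libraries. Its log2 difference was -2.78 ± 0.20 (adjusted p = 0.0011), its groups lay on either side of the control, and it overlaps another annotated gene on the same strand. The 8 leukocyte markers summed to 0.887 to 1.41 CPM with siRNA 1 and 1.61 to 2.14 with siRNA 2, beside 1.82 to 2.57 in control. Their part in the CD68 result was not tested.

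The amino acid genes CHAC1, SLC7A5, DDIT3 and ASNS came next and are described below with their list. WNT7B, a Wnt ligand, fell from a mean of 44.1 to 13.7 CPM (log2 -1.69 ± 0.15, adjusted p = 0.0020). ARRDC4, an alpha-arrestin that lowers glucose uptake, fell from 42.0 to 13.7 CPM (log2 -1.62 ± 0.12). ARG2, the mitochondrial arginase, and UPP1, uridine phosphorylase, fell by 1.67 ± 0.17 and 1.63 ± 0.17 on the log2 scale. The transcription factor CEBPB read 96.0, 77.8 and 79.7 CPM with siRNA 1 and 44.8, 17.5 and 16.9 with siRNA 2, and TMEM158, a membrane protein induced by RAS, read 112, 93.9 and 93.1 against 54.3, 20.6 and 20.6. In both genes siRNA 2 replicate 1 lay between its group and the siRNA 1 libraries. Their log2 differences were -1.68 ± 0.36 and -1.65 ± 0.36, or -1.28 and -1.22 GC-corrected. The calls of CEBPB were lost in 4 of the 6 fits that left out a library and those of TMEM158 in 5, namely without siRNA 1 replicates 2 or 3 or siRNA 2 replicates 2 or 3, and for TMEM158 also without siRNA 1 replicate 1. Of the 24 genes named by size, 21 were called in all 6 of these fits, the others being TNNC1, CEBPB and TMEM158.

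**Figure D4:**
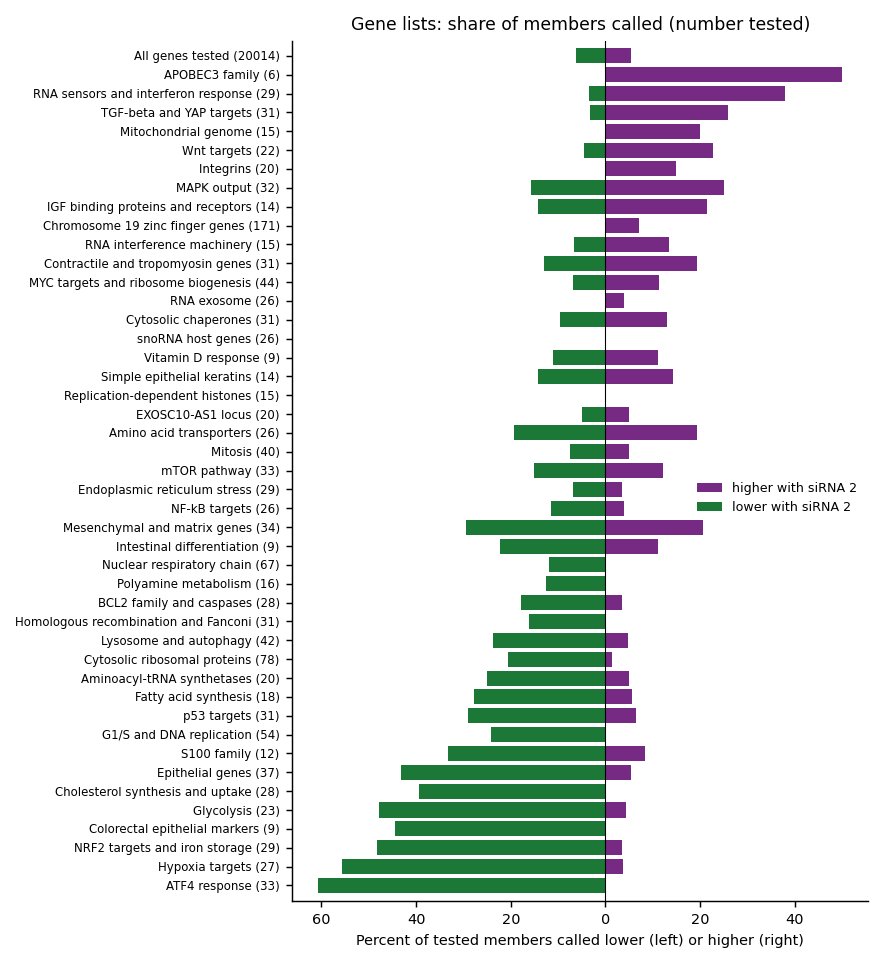
Share of the tested members of each gene list that was called higher (right) or lower (left) with siRNA 2, in percent, with the number tested in brackets and all genes tested at the top. ATF4 response, hypoxia and NRF2 genes reach farthest to the left, and APOBEC3 and interferon genes farthest to the right.

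The gene list with the largest share of lower members was the ATF4 response. ATF4 is a transcription factor made when amino acids are scarce or the endoplasmic reticulum is stressed, and its targets import and make amino acids, charge tRNAs and, under lasting stress, promote cell death. Of 34 genes on the list 33 were tested, of which 20 were lower with siRNA 2 and 0 were higher, with a median log2 difference of -0.67 beside 0.00 over all genes. At an unadjusted p under 0.05 the number was 23. GC-corrected, 23 were lower and 2 were higher, with a median of -0.71, and with the replicate block 21 and 1. The count of lower members was 12 without siRNA 2 replicate 2 and 12 without siRNA 2 replicate 3. All 20 called members had a control mean between those of the siRNAs. For this list and the later ones, the base over all genes tested was 5.42% higher and 6.2% lower, or 12% and 10.6% GC-corrected. With the replicate block the base was 2088 higher and 2569 lower of 20014 genes.

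ASNS, which makes asparagine, read 222, 231 and 226 CPM with siRNA 1 and 71.0, 64.5 and 70.4 with siRNA 2, beside 113, 109 and 107 in the control libraries. Its log2 difference was -1.72 ± 0.08 (adjusted p = 0.00029), and the 3 groups formed separate steps with no overlap. SLC7A5, the light chain of the main importer of large neutral amino acids, read 897, 765 and 756 CPM with siRNA 1 and 222, 170 and 172 with siRNA 2, beside 474, 480 and 489 in the control libraries (log2 -2.10 ± 0.13, adjusted p = 0.00048). Its heavy chain SLC3A2 read 409, 345 and 341 CPM against 155, 134 and 128, with 216, 223 and 218 in control (log2 -1.39 ± 0.11, adjusted p = 0.0016). Both chains showed the same order of groups as ASNS. DDIT3, the transcription factor CHOP, read 20.9, 17.8 and 20.4 CPM against 5.68, 5.73 and 5.89 (log2 -1.77 ± 0.12), and it overlaps MARS1 on the other strand. CHAC1, an enzyme that breaks down glutathione, read 29.3, 23.7 and 26.0 CPM against 6.77, 5.58 and 4.23 (log2 -2.25 ± 0.19). The transcript of ATF4 itself, named here after its values were seen, fell from a mean of 378 to 247 CPM (log2 -0.62 ± 0.09, adjusted p = 0.0069).

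The other 13 members were not called. PSPH of the serine pathway had a log2 difference of -0.05 ± 0.11 and CTH of cysteine synthesis 0.16 ± 0.14, while the called PHGDH and PSAT1, which act before PSPH, fell by 1.06 ± 0.12 and 0.90 ± 0.08. SLC7A11, the cystine importer, read 66.8, 157 and 154 CPM with siRNA 1 and 82.2, 108 and 105 with siRNA 2, and its groups overlapped because of siRNA 1 replicate 1. Its log2 difference was -0.36 ± 0.29 (adjusted p = 0.44), and -0.71 GC-corrected with an adjusted p of 0.0048. These 5 genes were picked after their values were seen.

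**Figure D5:**
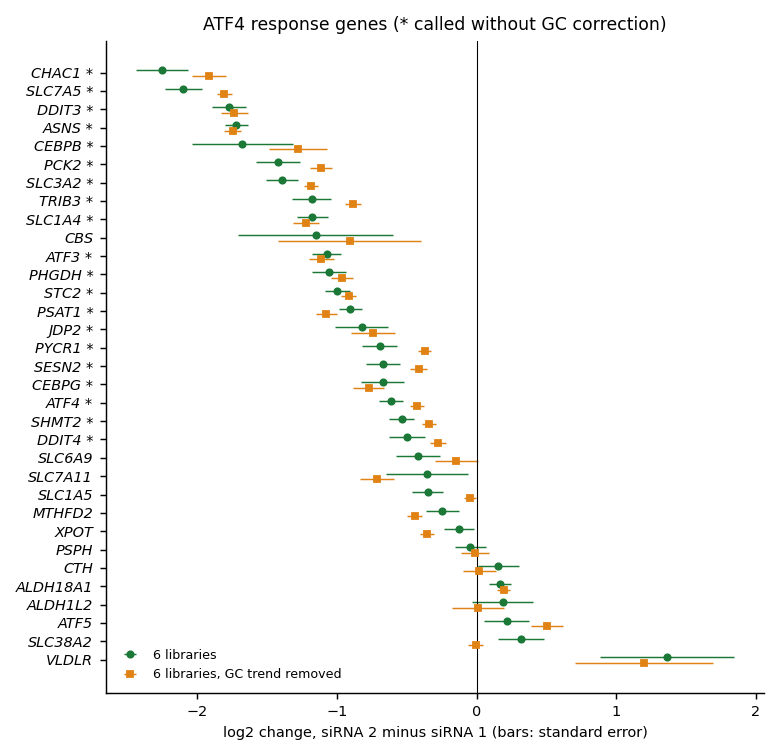
Log2 difference (siRNA 2 minus siRNA 1) of all 33 tested genes of the ATF4 list with its standard error, from the 6 libraries as counted (circles) and with each library's GC trend removed (squares). Genes marked with an asterisk were called without the correction, and all 20 of these lie to the left of 0, from -2.25 for CHAC1 to -0.50 for DDIT4.

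ATF4 binds DNA with partners of the C/EBP family at composite elements of the form TGATGNAA. That motif was looked for on both strands (reverse complement TTNCATCA) in the 250 bases before the start of each gene in the RefSeq promoter table (GRCh38.p14), and 3.14% of 35116 promoters held it. Of the 33 tested list genes 28 had a promoter there and 6 held the motif, of which 5 were called lower, among them ASNS, CHAC1 and ATF3, a bZIP factor that fell by 1.08 ± 0.10 and was named after its value was seen. The promoters of these 3 are shown because the genes are among those that fell, chr7:97872409-97872658 on the minus strand for ASNS, chr15:40953221-40953470 on the plus strand for CHAC1 and chr1:212565157-212565406 on the plus strand for ATF3. They read 5′ to 3′ toward the gene, and capitals mark the match, whose first base lies 68, 209 and 191 bases before the start. A match describes the letters only. The list was chosen from known ATF4 targets, so its share with this motif is a property of the list and not of the comparison. A gene counted if any of its promoters held the motif, while 3.14% is a share of promoters. Over the whole list 20 of the 33 tested genes were called lower.
ASNS: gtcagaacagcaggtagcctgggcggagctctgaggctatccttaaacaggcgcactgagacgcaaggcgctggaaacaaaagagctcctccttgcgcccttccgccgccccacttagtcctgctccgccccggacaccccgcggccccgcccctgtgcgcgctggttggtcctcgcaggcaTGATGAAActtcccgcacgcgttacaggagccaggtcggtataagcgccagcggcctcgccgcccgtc
CHAC1: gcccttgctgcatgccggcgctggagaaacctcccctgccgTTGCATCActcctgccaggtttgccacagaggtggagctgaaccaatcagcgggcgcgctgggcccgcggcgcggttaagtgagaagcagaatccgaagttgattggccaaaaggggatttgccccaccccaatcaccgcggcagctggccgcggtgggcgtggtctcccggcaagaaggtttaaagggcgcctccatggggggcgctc
ATF3: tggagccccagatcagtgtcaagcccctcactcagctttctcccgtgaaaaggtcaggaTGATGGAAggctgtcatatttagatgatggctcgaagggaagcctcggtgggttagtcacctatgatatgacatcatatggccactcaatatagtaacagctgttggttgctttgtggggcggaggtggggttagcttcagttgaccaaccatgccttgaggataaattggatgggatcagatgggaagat

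Lists next to this one in amino acid handling held calls in both directions, and some of their genes are also on the ATF4 list. Over all genes tested 5.42% were higher and 6.2% lower, or 12% and 10.6% GC-corrected. The endoplasmic reticulum stress counts below were near these shares, both as counted and GC-corrected. Of 26 amino acid transporters tested 5 were lower and 5 were higher (median log2 0.15), or 6 and 6 GC-corrected (median -0.03) and 9 and 7 with the replicate block. The lower ones with the smallest adjusted p were SLC7A5, SLC3A2, SLC1A4, which carries alanine, serine and cysteine and fell by 1.18 ± 0.11, and SLC7A1, an importer of arginine and lysine that fell by 0.69 ± 0.08. Of these, SLC7A5, SLC3A2 and SLC1A4 are also on the ATF4 list, so their calls are counted in both lists. Of 20 cytosolic aminoacyl-tRNA synthetases, which attach amino acids to tRNAs, 5 were lower and 1 was higher (median -0.12), or 9 and 3 GC-corrected and 8 and 3 with the block. AARS1 read 337, 289 and 285 CPM with siRNA 1 and 150, 136 and 143 with siRNA 2 (log2 -1.09 ± 0.10, adjusted p = 0.0020), and CARS1, GARS1 and MARS1 fell by 0.62, 0.44 and 0.40. The synthetase count was 2 without siRNA 1 replicates 2 or 3 and 1 without siRNA 2 replicates 2 or 3, and the count of higher transporters was 1 and 0 in the same fits. In the mTOR pathway 5 of 33 genes were lower and 4 were higher, or 6 and 9 GC-corrected and 10 and 7 with the block. The stress-induced mTORC1 inhibitors of the sestrin family went opposite ways, SESN3 up from a mean of 7.02 to 22.1 CPM (log2 1.65 ± 0.24) and SESN2, an ATF4 and p53 target, down from 63.7 to 39.98 CPM (log2 -0.67 ± 0.12). SESN2 is on the ATF4 list as well. Of 29 genes of the endoplasmic reticulum stress list, 2 were lower and 1 was higher (median 0.02), or 4 and 4 GC-corrected and 4 and 6 with the block. In both lists 0 genes were called without siRNA 2 replicates 2 or 3, and without siRNA 1 replicates 2 or 3 the mTOR list had 1 lower and 1 higher and the stress list 1 lower.

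Hypoxia targets and glycolysis were also lower with siRNA 2. Hypoxia-inducible factors switch cells to glycolysis and induce vessel growth when oxygen is low. Of 27 hypoxia targets tested 15 were lower and 1 was higher (median log2 -0.43), and of 23 glycolysis genes 11 were lower and 1 was higher (median -0.29). GC-corrected, the counts were 18 and 1 (median -0.43) and 13 and 1 (median -0.18). The gene higher in both lists was SLC2A3, a glucose transporter, which read 62.7, 67.9 and 66.9 CPM with siRNA 1 and 127, 127 and 124 with siRNA 2 (log2 0.94 ± 0.08, adjusted p = 0.0020), the latter close to the control libraries at 119, 120 and 119.

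PFKFB3, which makes the activator of phosphofructokinase, read 86.1, 77.4 and 77.8 CPM with siRNA 1 and 35.4, 29.5 and 32.9 with siRNA 2 (log2 -1.30 ± 0.10, adjusted p = 0.0016). The neuronal-type enolase ENO2 and hexokinase HK2 fell by 0.80 ± 0.08 and 0.67 ± 0.08. VEGFA, the vascular growth factor, read 245, 239 and 231 CPM against 160, 152 and 147 (log2 -0.64 ± 0.08, adjusted p = 0.0050), and its control libraries, at a mean of 257 CPM, were above both siRNAs. The stanniocalcin STC2 and the circadian repressor BHLHE40 fell by 1.00 ± 0.09 and 0.88 ± 0.09. STC2 is also on the ATF4 list, so its call is counted in both lists. The lower hypoxia genes numbered 8 without siRNA 1 replicates 2 or 3, 5 without siRNA 2 replicate 2 and 4 without siRNA 2 replicate 3, and the lower glycolysis genes 7 and 5 in the same order. Of the called hypoxia genes, 8 of 16 had a control mean above both siRNAs.

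Genes of cholesterol synthesis and uptake differed less firmly. Of 28 genes 11 were lower and 0 were higher (median log2 -0.27), and 15 had an unadjusted p under 0.05. GC-corrected, 14 were lower and 2 were higher (median -0.20). The count was 0 without siRNA 2 replicate 2 or 3, 3 without siRNA 1 replicate 2 and 2 without siRNA 1 replicate 3. DHCR7, the last enzyme of the pathway, read 157, 128 and 132 CPM with siRNA 1 and 87.7, 76.5 and 71.2 with siRNA 2 (log2 -0.83 ± 0.12, adjusted p = 0.0079). The sterol-sensing transcription factor SREBF2 read 281, 250 and 247 CPM against 184, 150 and 141 (log2 -0.71 ± 0.12, adjusted p = 0.012), and both groups were below its control libraries at 350, 366 and 359 CPM. Of the 11 called genes, 9 had a control mean above both siRNAs. HSD17B7 and MVD fell by 0.59 ± 0.10 and 0.82 ± 0.16. In fatty acid synthesis 5 of 18 genes were lower and 1 was higher (median -0.13), or 6 and 3 GC-corrected and 7 and 3 with the replicate block, and the lower count was 1 without siRNA 1 replicates 2 or 3 and 0 without siRNA 2 replicates 2 or 3.

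NRF2 targets, the antioxidant and iron storage genes induced by oxidative stress, were lower as well. Of 29 tested 14 were lower and 1 was higher (median log2 -0.37), or 17 and 2 GC-corrected (median -0.34) and 15 and 2 with the replicate block. TXNRD1, thioredoxin reductase, read 1114, 1198 and 1176 CPM with siRNA 1 and 672, 690 and 696 with siRNA 2, beside a control mean of 904 (log2 -0.76 ± 0.07, adjusted p = 0.0020). HMOX1, which breaks down heme, read 80.0, 64.8 and 66.4 CPM against 39.4, 37.4 and 38.6 (log2 -0.87 ± 0.11). The ferritin light chain FTL fell by 0.83 ± 0.11 and the oxidative stress gene OSGIN1 by 1.12 ± 0.12, and FTL has processed copies in the genome that could share its reads. The control mean lay between the siRNAs for 13 of the 15 called genes. The count of lower genes was 7 without siRNA 1 replicates 2 or 3 and 4 without siRNA 2 replicates 2 or 3.

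In the lysosome and autophagy list 10 of 42 genes were lower and 2 were higher (median log2 -0.17), or 10 and 6 GC-corrected and 17 and 5 with the replicate block. CD68 led, followed by the sialidase NEU1 (log2 -0.93 ± 0.11) and the aspartylglucosaminidase AGA (-0.91 ± 0.13), while HEXA, a subunit of hexosaminidase, rose by 0.74 ± 0.11. The count of lower genes was 4 without siRNA 1 replicates 2 or 3 and 2 without siRNA 2 replicates 2 or 3.

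Of 78 cytosolic ribosomal protein genes 16 were lower and 1, RPL15, was higher, with a median log2 difference of -0.30, and 54 had an unadjusted p under 0.05. GC-corrected, 42 were lower and 3 were higher (median -0.34), and with the replicate block 49 and 2. RPS26 differed most firmly, with a mean of 268 CPM with siRNA 1 and 156 with siRNA 2 (log2 -0.78 ± 0.10, adjusted p = 0.0062), and RPL29, RPL26 and RPL39 fell by 0.51, 0.42 and 0.55. These genes have many processed copies, and how the authors' counting assigned shared reads was not given in the sources used here. Lower genes numbered 42 without siRNA 2 replicate 1, 2 without siRNA 1 replicate 2, 1 without siRNA 1 replicate 3, 1 without siRNA 2 replicate 2 and 0 without siRNA 2 replicate 3. In the libraries with little GC trend the median was -0.13.

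Nuclear genes of the respiratory chain gave 8 lower and 0 higher of 67 (median log2 -0.24, 31 with an unadjusted p under 0.05), or 21 and 0 GC-corrected and 27 and 2 with the replicate block. All 8 had a control mean between the siRNAs. The complex I subunits NDUFA9, NDUFS6 and NDUFB11 fell by 0.52 ± 0.10, 0.62 ± 0.12 and 0.78 ± 0.15, and the complex III subunit UQCRQ by 0.67 ± 0.16. Their count was 19 without siRNA 2 replicate 1, 4 without siRNA 1 replicate 1, 2 without siRNA 1 replicate 2, and 0 without siRNA 1 replicate 3 or siRNA 2 replicates 2 or 3. Of the 15 genes of the mitochondrial genome itself 3 were higher and 0 lower, the NADH dehydrogenase subunit MT-ND2 (0.67 ± 0.11), the ATP synthase subunit MT-ATP6 (0.22 ± 0.05) and the large ribosomal RNA MT-RNR2 (0.30 ± 0.07), each with nuclear copies that may share reads. GC-corrected 3 were higher and 1 lower, and with the block 6 and 0. The count of higher genes was 7 without siRNA 1 replicate 1, 1 without siRNA 1 replicates 2 or 3 and 0 without siRNA 2 replicates 2 or 3. Mitochondrial genes held 8.51 to 8.57% of the counts with siRNA 1 and 8.73 to 9.09% with siRNA 2.

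Genes that bring cells into S phase were lower in part. Of 54 G1/S and replication genes 13 were lower and 0 were higher (median log2 -0.21, 25 with an unadjusted p under 0.05), or 22 and 2 GC-corrected and 19 and 2 with the replicate block. The transcription factor E2F2 read 38.9, 32.9 and 32.3 CPM with siRNA 1 and 19.8, 19.5 and 18.7 with siRNA 2 (log2 -0.84 ± 0.11, adjusted p = 0.0060). CDC45, part of the replicative helicase, CDC25A, the phosphatase that activates CDK2, and RRM2, of ribonucleotide reductase, fell by 0.71 ± 0.10, 0.67 ± 0.09 and 0.58 ± 0.09. For RRM2 the control libraries, at 403, 406 and 393 CPM, matched siRNA 2 at 413, 405 and 420, and siRNA 1 stood above at 544, 664 and 644. E2F2, CDC45 and CDC25A had control means of 21.4, 24.8 and 25.7 CPM. These were near siRNA 2, at 19.3, 23.4 and 27.5, and below siRNA 1, at 34.7, 38.3 and 43.6. Of the 13 called genes, 8 had a control mean between those of the siRNAs and 5 had one below both. The count of lower genes was 6 without siRNA 1 replicate 2, 4 without siRNA 1 replicate 3, 2 without siRNA 2 replicate 2 and 0 without siRNA 2 replicate 3.

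Of 31 homologous recombination and Fanconi genes 5 were lower, among them the exonuclease EXO1 (log2 -0.53 ± 0.09), and 16 were lower GC-corrected and 7 lower and 3 higher with the replicate block. That count was 0 without siRNA 1 replicates 2 or 3 and 0 without siRNA 2 replicates 2 or 3. Mitotic genes gave 2 higher and 3 lower of 40 (median 0.04), beside 5.42% and 6.2% of all genes, or 4 and 7 GC-corrected and 5 and 3 with the block, with the survivin gene BIRC5 lower by 0.51 ± 0.08 and the kinetochore gene CENPF higher by 0.62 ± 0.13. Without siRNA 2 replicates 2 or 3 no mitotic gene was called, without siRNA 1 replicate 2 there were 0 higher and 2 lower, and without siRNA 1 replicate 3 there were 0 and 1. Replication-dependent histones gave 0 calls among 15 tested by edgeR, with 2 at an unadjusted p under 0.05, 1 call by DESeq2 and 0 by limma-voom, and they carry no poly(A) tail, so that their level also depends on the library type.

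Targets of p53, the DNA damage responsive tumour suppressor, did not move as a block. Of 31 tested 9 were lower and 2 were higher, with a median log2 difference of -0.05, or 12 and 6 GC-corrected and 13 and 8 with the replicate block. CCNG1, cyclin G1, rose from a mean of 87.9 to 235 CPM (log2 1.42 ± 0.15, adjusted p = 0.0032) and the kinase PLK2 by 0.60 ± 0.08. GDF15, a secreted stress factor, fell from 917 to 386 CPM (log2 -1.25 ± 0.15, adjusted p = 0.0047) and PLK3 by 0.86 ± 0.12. The lower count was 3 without siRNA 1 replicate 2, 4 without siRNA 1 replicate 3 and 1 without siRNA 2 replicates 2 or 3. In the BCL2 and caspase list 5 of 28 were lower and 1 was higher (median 0.00), or 5 and 5 GC-corrected and 7 and 4 with the block, with the initiator caspase CASP9 lower by 0.66 ± 0.12. That lower count was 1 without siRNA 1 replicate 3 and 0 without siRNA 1 replicate 2 or siRNA 2 replicates 2 or 3.

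Genes of RNA sensing and the interferon response went the opposite way. Of 29 tested 11 were higher and 1 was lower (median log2 0.44), or 14 and 1 GC-corrected (median 0.42). IFIT1, which binds foreign RNA by its 5′ end, read 6.02, 5.23 and 5.07 CPM with siRNA 1 and 13.4, 17.1 and 16.8 with siRNA 2 (log2 1.53 ± 0.15, adjusted p = 0.0026). Its control libraries, at 5.65, 5.94 and 6.18 CPM, overlapped siRNA 1, and the same held for IFIT2 with control values of 4.07, 3.42 and 3.89 against 3.13, 3.56 and 2.47 with siRNA 1 and 9.04, 13.2 and 10.2 with siRNA 2. IFI44 rose from a mean of 0.448 to 1.75 CPM (log2 1.96 ± 0.32). ISG20, an exonuclease of the same response, was the exception and fell from 12.5 to 4.70 CPM (log2 -1.41 ± 0.16, adjusted p = 0.0041). The number of higher genes was 7 without siRNA 1 replicate 2, 4 without siRNA 1 replicate 3 and 2 without siRNA 2 replicate 2 or 3. With the replicate block 12 were higher and 3 lower. The summed leukocyte markers read 0.887 to 1.41 CPM with siRNA 1 and 1.61 to 2.14 with siRNA 2, beside 1.82 to 2.57 in control. PTPRC, CD3E and MS4A1 were at 0, and the part of these markers in the interferon result was not tested.

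The APOBEC3 genes, a cluster of cytidine deaminases that act against retroviruses and transposons, had 3 called members among 6 tested. APOBEC3G rose as given above, APOBEC3F rose from 22.5, 20.9 and 22.0 to 35.8, 40.7 and 39.4 CPM (log2 0.83 ± 0.10, adjusted p = 0.0046), and APOBEC3C from 81.2, 80.7 and 71.7 to 126, 127 and 129 CPM (log2 0.71 ± 0.09, adjusted p = 0.0050). All 3 were called in each of the 6 fits that left out a library, and in none of the 3 did the groups overlap. APOBEC3B, APOBEC3D and APOBEC3H had log2 differences of 0.07 ± 0.12, -0.16 ± 0.15 and -0.70 ± 0.49 (adjusted p = 0.73, 0.50 and 0.37), and their groups overlapped or lay close together. The members are similar in sequence, and reads shared between them may be split.

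Factors of the interferon response bind the interferon-stimulated response element, whose core is a pair of GAAA words with 2 bases of any kind between them. That core was looked for on both strands in the same 250 bases, and 3.02% of the 35116 promoters held it. Of 29 list genes 21 had a promoter in the table and 12 of these held the motif, of which 5 were called higher and 1, ISG20, was called lower. The promoters of IFIT1, BST2 and IFI44 are shown as examples of genes that rose, at chr10:89392373-89392622 on the plus strand, chr19:17405631-17405880 on the minus strand and chr1:78649539-78649788 on the plus strand (GRCh38.p14). Capitals mark the matches, which overlap each other in BST2, a membrane tether of virus particles that rose by 1.77 ± 0.33. The list was chosen from known interferon-induced genes, so its share of promoters with this motif is a property of the list and not of the comparison. Here too a gene counted if any of its promoters held the motif. Over the whole list 11 of the 29 tested genes were called higher and 1 lower.
IFIT1: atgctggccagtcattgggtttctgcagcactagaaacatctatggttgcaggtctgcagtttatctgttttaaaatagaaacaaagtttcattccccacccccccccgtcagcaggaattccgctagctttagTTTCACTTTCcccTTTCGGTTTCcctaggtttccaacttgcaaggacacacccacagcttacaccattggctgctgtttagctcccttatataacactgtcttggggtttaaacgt
BST2: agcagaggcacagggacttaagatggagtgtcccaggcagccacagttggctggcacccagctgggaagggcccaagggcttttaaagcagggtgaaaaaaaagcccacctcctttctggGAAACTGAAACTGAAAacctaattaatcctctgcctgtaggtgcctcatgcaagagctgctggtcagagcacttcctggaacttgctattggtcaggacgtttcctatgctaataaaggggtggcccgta
IFI44: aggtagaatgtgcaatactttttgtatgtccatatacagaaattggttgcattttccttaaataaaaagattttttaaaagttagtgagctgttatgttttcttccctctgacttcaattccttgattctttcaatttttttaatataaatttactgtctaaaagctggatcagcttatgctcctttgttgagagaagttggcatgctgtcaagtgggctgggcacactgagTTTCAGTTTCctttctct

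Epithelial genes were lower with siRNA 2. Of 37 tested 16 were lower and 2 were higher (median log2 -0.33), or 21 and 5 GC-corrected (median -0.30). The tight junction gene CLDN7 read 189, 160 and 165 CPM with siRNA 1 and 86.0, 61.3 and 60.1 with siRNA 2, beside 107, 105 and 107 in control (log2 -1.31 ± 0.15, adjusted p = 0.0043). The epithelial transcription factors OVOL1 and GRHL2 fell by 0.89 ± 0.12 and 0.92 ± 0.13, and GRHL2 read 22.1, 19.97 and 19.6 CPM against 9.76, 10.6 and 12.2. CLDN2, a claudin that forms pores in leaky epithelia, rose from a mean of 3.37 to 7.32 CPM (log2 1.12 ± 0.15). Among the 9 tested colorectal markers 4 were lower, CDH1 and EPCAM by 0.49 ± 0.08 and 0.49 ± 0.11, ELF3 by 0.63 ± 0.10, and CLDN7. GC-corrected, 4 of these markers were lower and 2 were higher. Their median log2 difference was -0.33 as counted, -0.12 GC-corrected and 0.001 in the libraries with little GC trend. The epithelial count was 8 without siRNA 1 replicate 2, 7 without siRNA 1 replicate 3, 1 without siRNA 2 replicate 2 and 2 without siRNA 2 replicate 3.

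The S100 calcium-binding proteins held a marked single difference. S100A14 read 100, 87.6 and 90.0 CPM with siRNA 1 and 31.6, 30.0 and 30.1 with siRNA 2 (log2 -1.60 ± 0.09, adjusted p = 0.00048), and its control libraries, at 37.0, 35.8 and 34.4 CPM, were near siRNA 2. S100A13 and S100A6 fell by 0.81 ± 0.12 and 0.90 ± 0.15, while S100A4, often tied to motile cells, rose from a mean of 47.2 to 80.0 CPM (log2 0.76 ± 0.13), the control mean being 84.3. In all, 4 of 12 were lower and 1 was higher, or 4 and 3 GC-corrected, and the lower count was 1 without siRNA 2 replicates 2 or 3. Of 14 keratins tested 2 were higher and 2 were lower, KRT23 by 1.05 ± 0.12 and KRT7 by 0.62 ± 0.15 upward, and KRT6A by 2.53 ± 0.34 and KRT80 by 1.03 ± 0.19 downward. The control mean of KRT7, 10.5 CPM, was above both siRNAs, at 3.22 and 4.97, while that of KRT23, 11.5, was near siRNA 1 at 12.6. Of the 4 called keratins, 1 had a control mean between the siRNAs, 2 above both and 1 below both. KRT6A was low throughout, with means of 3.49 and 0.602 CPM, and near-identical keratins could share its reads. GC-corrected 6 keratins were higher and 2 lower. The higher count was 1 without siRNA 1 replicates 1, 2 or 3 or siRNA 2 replicates 2 or 3, and the lower count was 1 without siRNA 1 replicate 3 or siRNA 2 replicates 2 or 3. KRT7 was lost in 5 of the 6 fits and KRT80 in 3.

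Mesenchymal and matrix genes moved in both directions. Of 34 tested 7 were higher and 10 were lower (median log2 -0.03), or 10 and 10 GC-corrected. Besides SPARC, the laminin chain LAMB1 rose from 120, 116 and 111 to 183, 207 and 205 CPM (log2 0.78 ± 0.09, adjusted p = 0.0041). The laminin chain LAMA3, of the epithelial laminin, fell from 52.2, 48.1 and 46.1 to 24.02, 23.9 and 24.8 CPM (log2 -1.01 ± 0.10, adjusted p = 0.0023), and the syndecan SDC4 fell by 0.85 ± 0.07. LAMB3, another chain of that laminin, named after its values were seen, fell by 0.92 ± 0.13. The counts were 4 higher and 8 lower without siRNA 1 replicates 2 or 3, and 2 and 4 without siRNA 2 replicates 2 or 3. Of 20 integrins 3 were higher and 0 lower, or 5 and 1 GC-corrected and 4 and 1 with the replicate block. As counted these were ITGB8 (1.48 ± 0.28), ITGB4 (0.54 ± 0.11) and ITGA1 (0.85 ± 0.20), and ITGB4 is a receptor for that same laminin. ITGB8 read 5.23, 11.9 and 10.7 CPM with siRNA 1 and 22.2, 26.2 and 29.3 with siRNA 2. The integrin count was 1 without siRNA 1 replicate 2 and 0 without siRNA 1 replicate 3 or siRNA 2 replicates 2 or 3. Of the 8 fibroblast markers COL1A2 and THY1 were at 0 and 3 were tested, with a median log2 difference of 0.52 and 2 of the 3 positive. COL1A1 fell by 0.39 ± 0.10 as counted (adjusted p = 0.048), with a GC-corrected log2 difference of -0.08 (adjusted p = 0.40). PDGFRB read 0.331 to 0.482 CPM with siRNA 1 and 0.502 to 0.712 with siRNA 2, and the part of these markers in the matrix result was not tested.

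Among signalling outputs, TGF-beta and YAP targets were more often higher. Of 31 tested 8 were higher and 1 was lower (median log2 0.21), or 14 and 2 GC-corrected (median 0.27) and 11 and 3 with the replicate block. The transcriptional inhibitor ID2 read 36.1, 36.9 and 41.0 CPM with siRNA 1 and 84.8, 68.2 and 71.5 with siRNA 2 (log2 0.98 ± 0.11, adjusted p = 0.0043), beside 68.1, 65.3 and 67.4 in control, so siRNA 1 stood below the other groups. The ectonucleotidase NT5E rose from a mean of 190 to 298 CPM (log2 0.65 ± 0.11), with a control mean of 360.3 above both. AMOTL1, of the angiomotin family that binds YAP, and the growth factor BMP4 rose by 0.52 ± 0.09 and 0.47 ± 0.09. The higher count was 2 without siRNA 1 replicates 2 or 3 and 1 without siRNA 2 replicates 2 or 3.

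Of 32 genes of MAPK output 8 were higher and 5 were lower, or 9 and 5 GC-corrected and 8 and 8 with the replicate block. SPRY4, a feedback inhibitor of the pathway, rose by 0.55 ± 0.08, and HMGA2 and ETV1, a chromatin protein and an ETS factor, by 0.96 ± 0.16 and 0.93 ± 0.16. The AP-1 factor JUN fell by 0.94 ± 0.13. In HMGA2, siRNA 1 replicate 1 was the lowest library at 163 CPM, with 246 and 233 in replicates 2 and 3 and 374, 438 and 441 with siRNA 2. The MAPK counts were 4 and 1 without siRNA 1 replicates 2 or 3, and 0 and 0 without siRNA 2 replicates 2 or 3. Wnt targets gave 5 higher and 1 lower of 22 (median log2 -0.05), or 8 and 2 GC-corrected and 6 and 3 with the block, with RNF43, a feedback inhibitor, higher by 0.46 ± 0.08, DKK4 higher by 1.10 ± 0.23 and NKD2 lower by 1.07 ± 0.21, and 0 were higher without siRNA 1 replicates 2 or 3 or siRNA 2 replicates 2 or 3. HCT116 carries an activating mutation in the beta-catenin gene as background. NF-kB targets gave 1 higher and 3 lower of 26, with a median of -0.23 as counted and 0.00 GC-corrected, and PLAU, urokinase, was lower by 0.70 ± 0.09. With the replicate block 3 were higher and 9 lower, and the lower count was 1 without siRNA 1 replicates 2 or 3 or siRNA 2 replicate 2 and 0 without siRNA 2 replicate 3.

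In the insulin-like growth factor group 3 of 14 genes were higher and 2 were lower, or 4 and 2 GC-corrected. The counts were 2 and 1 without siRNA 1 replicate 2, and 2 and 0 without siRNA 1 replicate 3 or siRNA 2 replicates 2 or 3. IRS1, the adaptor of the insulin receptors, rose from a mean of 56.3 to 130.3 CPM (log2 1.21 ± 0.09, adjusted p = 0.0011), while its relative IRS2 fell from 40.3 to 21.7 CPM (log2 -0.90 ± 0.15, adjusted p = 0.013). The control means, 64.9 and 40.4 CPM, were near siRNA 1 in both. IGF2R, the clearance receptor for IGF2, rose by 0.51 ± 0.09 and IGFBP2 fell by 1.00 ± 0.25. Contractile and tropomyosin genes gave 6 higher and 4 lower of 31, or 12 and 4 GC-corrected, led by MYBPH and TNNC1, with TPM1 lower by 0.59 ± 0.09. Their counts were 3 and 0 without siRNA 1 replicate 2, 2 and 0 without siRNA 1 replicate 3, and 1 and 0 without siRNA 2 replicates 2 or 3. Among 9 tested intestinal differentiation genes, carbonic anhydrase CA2 fell by 0.93 ± 0.11 and KLF4 by 0.91 ± 0.11, while CEACAM1 rose by 1.26 ± 0.16, and these 3 calls held in all 6 fits that left out a library. That list had 2 higher and 2 lower GC-corrected and with the replicate block.

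Genes of the RNA decay and silencing machinery, and of the target's own neighbourhood, are read beside the 11.6% called over all genes. Of 26 RNA exosome and cofactor genes 1, the zinc finger protein ZFC3H1, was higher (0.71 ± 0.15) and 0 were lower, or 1 and 5 GC-corrected and 5 and 2 with the replicate block. Of 26 snoRNA host genes 0 were called by edgeR, with 3 at an unadjusted p under 0.05, 3 calls by DESeq2 and 1 by limma-voom, with 3 calls GC-corrected and 1 with the block. Of 15 RNA interference genes, the Argonaute AGO1 and its partner TNRC6A were higher by 0.43 ± 0.12 and 0.42 ± 0.10 and TNRC6C was lower by 0.61 ± 0.09, and the list had 4 higher and 2 lower GC-corrected and 5 and 1 with the block. Of 20 tested genes around EXOSC10-AS1, DRAXIN was higher by 0.49 ± 0.11 and CASZ1 lower by 0.63 ± 0.13, with 3 and 1 GC-corrected and 1 and 4 with the block. The DRAXIN and CASZ1 calls, and those of ZFC3H1, TNRC6A and AGO1, were lost without siRNA 1 replicates 2 or 3 and without siRNA 2 replicates 2 or 3. AGO1 was also lost without siRNA 1 replicate 1, and TNRC6C was lost without siRNA 2 replicates 2 or 3. In polyamine metabolism, which the neighbouring spermidine synthase gene SRM belongs to, 2 of 16 were lower and 0 higher, or 5 and 2 GC-corrected and 5 and 1 with the block, with ODC1, the rate-limiting decarboxylase, down from a mean of 437 to 246 CPM (log2 -0.83 ± 0.09, adjusted p = 0.0032). The polyamine count was 1 without siRNA 1 replicates 1, 2 or 3 or siRNA 2 replicates 2 or 3, and 4 without siRNA 2 replicate 1.

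Among MYC targets and ribosome biogenesis genes 5 of 44 were higher and 3 were lower (median 0.00), or 9 and 5 GC-corrected and 8 and 9 with the replicate block. For this list and the chaperones, the base over all genes was 5.42% higher and 6.2% lower, or 12% and 10.6% GC-corrected. The nucleolar helicase DDX21 rose from a mean of 171 to 312 CPM (log2 0.87 ± 0.14), the processome protein UTP20 rose by 0.71 ± 0.11, and fibrillarin, FBL, fell by 0.54 ± 0.11. Cytosolic chaperones gave 4 higher and 3 lower of 31, or 5 and 5 GC-corrected and 6 and 6 with the block, with HSP90AA1 and HSPA4 higher by 0.46 ± 0.09 and 0.42 ± 0.08 and HSPA1A lower by 0.52 ± 0.12. Neither list had a call without siRNA 2 replicates 2 or 3, and without siRNA 1 replicates 2 or 3 the first had 2 higher and the second none. HSPA1A and HSPA1B are near-identical and cannot be told apart by most reads. The zinc finger genes of chromosome 19, mostly transcriptional repressors of transposons, gave 12 higher and 0 lower of 171 tested (median log2 0.23), or 22 and 0 GC-corrected (median 0.14). Beside the shares over all genes, 5.42% higher as counted and 12% GC-corrected, these higher counts were near the base. The shares lower over all genes were 6.2% and 10.6%. Their median GC content was 43.0%, beside 49.1% over all genes tested, and 33 were higher and 5 lower with the replicate block. The zinc finger count was 25 without siRNA 2 replicate 1, 3 without siRNA 1 replicate 2, 1 without siRNA 1 replicate 3 and 0 without siRNA 2 replicates 2 or 3.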

How the data were processed

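The authors deposited 1 table of raw counts per Ensembl gene identifier for all libraries. The table held 61806 identifiers, of which 61757 had a symbol in the name table used, and the 49 others held 0.0158% of the counts. The genome build was hg19, per the submitters' processing notes, while aligner, counter, annotation and strand setting were not given in the sources used here. GC content and overlaps came from GENCODE annotation of a newer build, so only RefSeq promoters have coordinates. Several other named genes, ASNS and CEBPB among them, also overlap an annotated gene, and not every overlap is given.

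Counts of the 6 siRNA libraries were filtered (filterByExpr, minimum count 10, minimum total 15), which kept 20014 genes with 99.9% of the counts, scaled by TMM and tested with edgeR 4.0.16 (R 4.3.3, quasi-likelihood, two-sided, group as the only term). Standard errors were the log2 difference divided by the square root of the F statistic. The common biological coefficient of variation was 21.3%. P-values were adjusted over all tested genes by the Benjamini-Hochberg method, and the scripts were tested on simulated data. CPM used TMM factors over all 9 libraries, except that marker sums and floors used library totals. Floors of 3 counts cover counting error only, as reads are not independent molecules. The GC correction added each library's loess trend (span 0.5) to the offset. Same-numbered libraries correlated above the threshold for pairing in all 3 pairs, so block values stand beside list counts that they moved by over 1.5 times. Replicates 2 and 3 correlated above that threshold across numbers as well. Deviations from a group mean cancel within the group, so the pairs were not independent and whether the libraries were paired is not settled. DESeq2 1.42.0 and limma 3.58.1 (voom) were alternatives.

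Named genes were the 12 largest rises and 12 largest falls with a mean log2 CPM of at least 2, called also with GC correction and with no overlap, and up to 4 called members per list by adjusted p, plus EXOSC10-AS1 and EXOSC10. The comparison, the lists and the tests were chosen with earlier results of these data known. Some genes that the rule names are not reported here.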

Additional observations from a re-analysis of the deposited data

How the results depend on the processing

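The number of called genes (2325, 1084 higher and 1241 lower) was 2392 with RLE factors, 2363 with upper quartile factors and 2524 with limma-voom, and moved by over 1.5 times in the next settings. It was 1018 (462 higher, 556 lower) with no filter over 34273 genes, 4378 (2066 and 2312) with DESeq2, and 4681 (2116 and 2565) with all 9 libraries in the fit. It was 4379 (2328 and 2051) with GC correction, 4657 (2088 and 2569) with the replicate block and 4029 (2085 and 1944) with both. It was 7562 (3616 and 3946) without both replicate 1 libraries, which left 2 against 2, and 4365 (2183 and 2182) in the 3 libraries with little GC trend, where the lone siRNA 2 library was assumed to vary like the others. Leaving out 1 library gave 237 to 3471 calls, 123 to 1353 higher and 114 to 2148 lower, and only without siRNA 1 replicate 1 (2546) or siRNA 2 replicate 1 (3471) was the number within 1.5 times of 2325. Fewer libraries lower the power of a test, but each of these fits left out 1 library, so their numbers differed by which library it was. The cause of the losses, and of the gains without a replicate 1, was not tested. The share of higher calls was 46.6% as reported, 38.1% without siRNA 2 replicate 1 and 53.2% with GC correction. Of 164 named genes none reversed under the 17 settings. Of their values, 2383 stayed on the same side of the threshold, 403 lost the call, mostly where a library was left out, and 2 gained it. Of the list counts, 897 stayed within 1.5 times and 701 did not. Depth limited EXOSC10-AS1, with at most 13 counts in a siRNA library.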

Other observations

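Of 14286 protein-coding genes tested 14.8% were called, 951 higher and 1157 lower with siRNA 2, at a median log2 CPM of 4.75. Of 3123 long non-coding RNA genes 3.84% were called, 74 higher and 46 lower, at a median log2 CPM of -0.65. Pseudogenes gave 3.44% of 1659, at a median of -0.43. The classes differ in level, and the share called was not compared at equal level.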
